A study of Homo sapiens with 6 samples.

Results

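The data described here are the genes on which 4 libraries of RIPK2 knockdown lay on the same side of both controls in U118 cells, an established human malignant glioma line whose cells the submitters label as brain astroblastoma. All 6 libraries of the series were used: 1 labelled WT, with no siRNA named, 1 labelled siNC, the control siRNA, and 4 in which siRNA was used to knock down RIPK2 (siRIPK2_1 to siRIPK2_4). All are labelled day 2 and come from cells kept in the same serum-containing medium. The labels do not say from when the days were counted or whether WT was mock transfected. Whether the 4 knockdown libraries stand for different siRNAs, separate cultures or repeat transfections is not said in the labels, so p-values measure only the spread between these libraries. Of 20263 listed genes, 10673 reached a mean of at least 5 CPM (counts per 1000000, with library sizes scaled by TMM factors) over the 6 libraries. Among these, 548 (5.13%) had all 4 siRIPK2 values below both controls and 520 (4.87%) had all 4 above both. Such a gene is called "below" or "above" in what follows.

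RIPK2 is a serine/threonine kinase with a caspase recruitment domain. It is recruited by the intracellular peptidoglycan sensors NOD1 and NOD2, is decorated with ubiquitin chains by ligases such as XIAP, and so gives the TAK1 and IKK kinase complexes a platform from which NF-kB and the MAP kinases are switched on. An siRNA lowers the messenger RNA it is directed against through Argonaute-mediated cleavage, and can also lower other transcripts that share a short stretch of complementarity with it.

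Total counts ranged from 33540619 in siNC to 45309423 in siRIPK2_3, and a level of 3 counts, used as a detection floor that covers counting error only, lay between 0.0664 and 0.0935 CPM. The siRIPK2 libraries were no closer to each other than to the controls. The median absolute log2 difference over the 10673 genes was 0.307 to 0.361 between 2 siRIPK2 libraries (6 pairs), 0.292 to 0.354 between siNC and a siRIPK2 library, 0.21 to 0.299 between WT and a siRIPK2 library, and 0.231 between WT and siNC. The lineage check was partial. The intermediate filament gene VIM stood at 3817 CPM in siRIPK2_2, its lowest value, and 7571 CPM in siNC, its highest, whereas GFAP, the astrocyte filament, was at 0.531 to 1.09 CPM in all libraries, and the astrocyte genes AQP4 and S100B were at or under 3 counts in each of them. The summed level of the 16 astrocyte and glioma markers, most of it VIM, was 7363 to 8393 CPM in the controls and 4663 to 8303 CPM in siRIPK2. The sum of the 22 mesenchymal glioma markers, which also include VIM, was 11630 to 16710 CPM in siRIPK2 and 16830 to 19650 CPM in the controls. These ranges did not overlap but nearly met. By gene, 2 of the 21 such markers with a mean of at least 5 CPM lay below both controls and 3 above. For the 15 macrophage and microglia markers the sum was 110 to 150 CPM in siRIPK2 against 99.7 to 168 CPM, most of it CD68. LAPTM5 was at 0.332 to 0.706 CPM against 0.943 CPM in WT and 2.87 CPM in siNC. AIF1, C1QA, C1QB, P2RY12 and TYROBP were at or under 3 counts in every library. In such bulk libraries, fewer cells of a type and less RNA per cell cannot be told apart, and the part of these marker levels in the results was not tested.

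**Figure D1:**
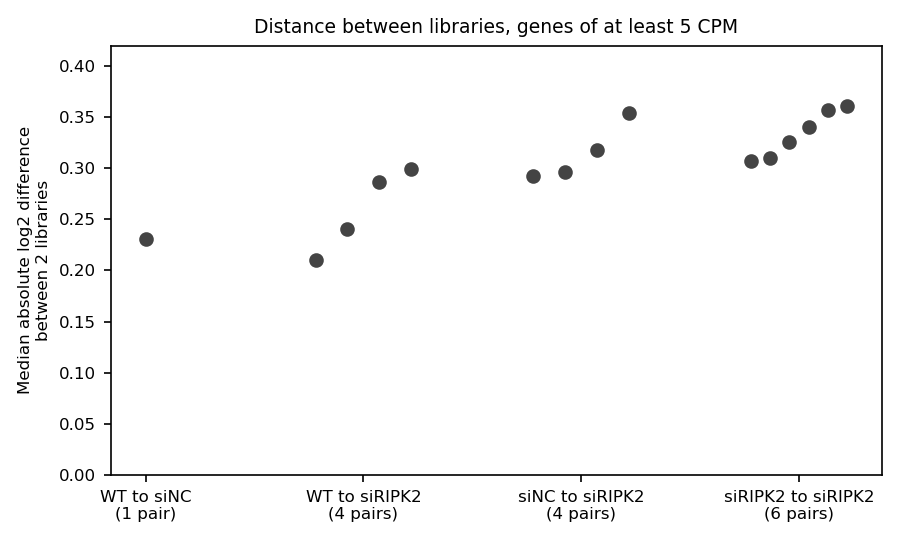
Median absolute log2 difference in CPM + 0.5 between 2 libraries over genes with a mean of at least 5 CPM, by kind of pair; each point is 1 pair. The 6 pairs of siRIPK2 libraries lie at 0.307 to 0.361, above the WT to siNC pair at 0.231.

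RIPK2 itself (ENSG00000104312, chr8:89757747-89791063 in GENCODE 29 on GRCh38) had a level of 56.7 CPM in WT and 43.4 CPM in siNC. In siRIPK2_1 to siRIPK2_4 its level was 3.86, 11.9, 6.26 and 4.32 CPM, a mean of 6.58 ± 3.68 (SD, n = 4). All 4 values lie far under both controls, with siRIPK2_2 the highest and siRIPK2_1 the lowest. The gap between the nearest siRIPK2 and control values, called the margin here, was 3.55-fold, the widest of all genes below both controls. Margins are ratios of CPM + 0.5. The log2 fold change against both controls was -2.93 (SE 0.43, adjusted p = 0.739 in edgeR). The adjusted p in edgeR was 0.0431 without siRIPK2_2, the library with the highest siRIPK2 value of this gene. Leaving out siRIPK2_1, siRIPK2_3 or siRIPK2_4 instead did not bring it under 0.05. In DESeq2 with all libraries it was 1.15e-06. An exact 2-sided permutation test on log2(CPM + 1) gave p = 0.0667, the lowest value that 15 splits allow.

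Genes on one side of both controls were a small share of those read, and most lay close to a control. The share of genes below both controls was 5.13% (548 of 10673) and the share above was 4.87% (520 of 10673). These counts use measured values of this contrast, so they describe the libraries and carry no test, and the same holds for the fold changes of single genes given below. Any 4 of the 6 libraries would put some genes on one side of the other 2. The shares by themselves therefore do not show an effect of the knockdown, and the shares for other picks of 4 were not tested. The median margin was 1.06-fold in both directions. The nearest values were at least 25% apart in 51 genes below (0.478%) and 37 above (0.347%). A margin of at least 1.5-fold was met by 10 and 5, and one of at least 2-fold by 2 and 2. Scaling by total counts alone, without TMM factors, gave 403 genes below and 639 above, so that 38.7% in place of 51.3% of the genes on one side lay below. Across all genes, in edgeR's quasi-likelihood test, which set the 4 siRIPK2 libraries against both controls over 13901 genes, no gene passed an adjusted p of 0.05. At an unadjusted p under 0.05, 171 genes were lower (1.23%) and 184 higher (1.32%), while the DESeq2 Wald test called 3 lower and 7 higher and limma-voom 0. The 2 lower DESeq2 calls with a mean of at least 5 CPM were RIPK2 and GOLM2. The other lower call, ENSG00000100101 (adjusted p = 4e-06 in DESeq2), stood at 20.5 CPM in WT and 0 in siNC and every siRIPK2 library. A DESeq2 call here can therefore rest on 1 control library. The 4 higher ones at that level were KAT6A, SEPTIN9, PITPNA and PEDS1-UBE2V1.

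**Figure D2:**
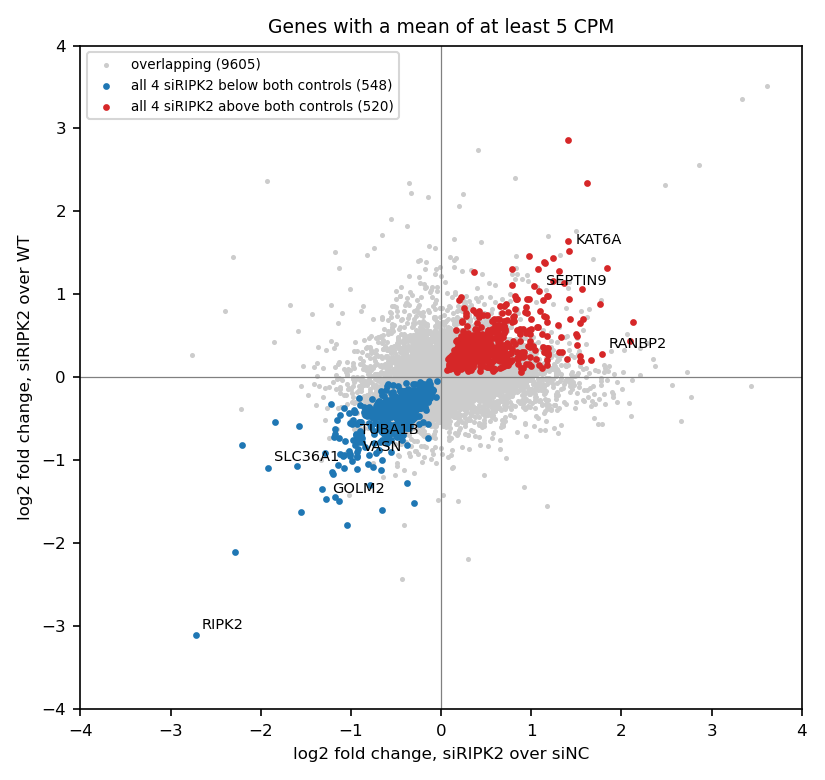
Log2 fold change of siRIPK2 over siNC (x axis) and over WT (y axis) for each gene with a mean of at least 5 CPM, from 1 edgeR fit with 3 groups; both axes share the 4 siRIPK2 libraries, and 11 genes beyond 4 on either axis are not drawn. The 548 genes below both controls and the 520 above lie mostly close to the origin. RIPK2 lies far from it at -2.72 and -3.11, and ENSG00000254692, also below, at -2.28 and -2.10.

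GOLM2, which encodes a Golgi membrane protein, came next to RIPK2 among the genes below both controls. The gene (ENSG00000166734, chr15:44288729-44415758) stood at 95.1 CPM in WT and 83.7 CPM in siNC against 32.3, 37.2, 29.3 and 38.9 CPM in siRIPK2_1 to siRIPK2_4, a knockdown mean of 34.4 ± 4.42 (SD, n = 4). The 4 siRIPK2 values were close together, and the margin was 2.14-fold. The log2 fold change was -1.38 (SE 0.21). Its paralog GOLM1, chosen after its values were seen, overlapped the controls: 59.9 CPM in WT, 65.8 CPM in siNC and 57 to 84.8 CPM in siRIPK2.

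Among secreted and membrane proteins, VASN, a transmembrane protein that binds TGF-beta (ENSG00000168140, chr16:4371848-4383528), had 219 CPM in WT and 214 CPM in siNC. The siRIPK2_1 to siRIPK2_4 values were 84.9, 128, 109 and 127 CPM, a mean of 112 ± 20.01 (SD, n = 4) and a margin of 1.68-fold (log2 fold change -0.95, SE 0.22). The controls were nearly equal and siRIPK2_1 was the lowest library. The sulfate transporter gene SLC26A2, whose exons overlap TIGD6, measured 21.8 and 18.1 CPM in WT and siNC, against 5.63, 10.5, 6.15 and 9.68 CPM in the 4 siRIPK2 libraries. SLC36A1, a lysosomal and plasma membrane carrier of small neutral amino acids (ENSG00000123643, chr5:151437046-151492381), was at 29.9 CPM in WT, 53 CPM in siNC and 22, 11.4, 13.2 and 9.51 CPM in siRIPK2. Here the 2 controls differed from each other more than WT differed from siRIPK2_1. The margin was therefore only 1.35-fold although the log2 fold change was -1.56 (SE 0.37). BGN, the small matrix proteoglycan biglycan, was at 24.8 CPM in WT and 29.5 CPM in siNC against 13.1 to 17.7 CPM in siRIPK2. The peptide hormone gene UCN2, which overlaps PFKFB4, was at 11.5 and 12.1 CPM against 3.71 to 6.46 CPM.

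Of the tubulin-related genes below both controls, TBCEL had one of the 15 widest margins and TUBA1B did not. TUBA1B, a major alpha-tubulin (ENSG00000123416, chr12:49127782-49131397), had 4109 CPM in WT and 4776 CPM in siNC, and 2254, 1979, 2459.6 and 3047 CPM in siRIPK2_1 to siRIPK2_4 (mean 2435 ± 453, SD, n = 4). No siRIPK2 value reached the lower control, siRIPK2_4 came nearest, and the margin was 1.35-fold (log2 fold change -0.87, SE 0.21). TBCEL, which is related to tubulin cofactor E and destabilises tubulin, was at 31.2 CPM in WT and 34.3 CPM in siNC against 20.4, 18, 14.8 and 14.4 CPM. The closest alpha-tubulin paralogs, chosen after their values were seen, did not share this order. TUBA1A was at 309.7 CPM in WT, 257 CPM in siNC and 564, 237, 422 and 652 CPM in siRIPK2. TUBA1C was at 1076 and 862 CPM against 1162, 764, 1095 and 1292 CPM. These copies are similar in sequence, and how reads that match more than 1 of them were counted is not given in the sources used here, so the split of reads between them is uncertain.

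The remaining genes with the widest margins below both controls include several signalling regulators. RASSF8, of the RAS-association family, was at 83.3 and 58.3 CPM in WT and siNC against 27.9 to 38.6 CPM in siRIPK2, and SOCS2, an inhibitor of cytokine receptor signalling, at 11.5 and 11.3 CPM against 4.54 to 7.48 CPM. NUMB, an antagonist of Notch signalling, was at 187 CPM in WT, 195 CPM in siNC and 53.5, 132, 101 and 126 CPM in siRIPK2, with siRIPK2_1 apart on the low side. MEX3C, an RNA-binding ubiquitin ligase, was at 57 and 56 CPM against 39.5, 17.6, 19.4 and 13.2 CPM, and there siRIPK2_1 was the library nearest the controls. GDPD5, a glycerophosphodiester phosphodiesterase gene, was at 11.3 and 14.9 CPM against 6.10 to 7.32 CPM. DHRS13, a dehydrogenase-family gene, was at 11.7 and 13.3 CPM against 4.65 to 8.08 CPM. Of the 15 widest margins, ENSG00000254692 and ENSG00000250644 overlap 3 and 2 other listed genes and are uncertain for that reason.

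**Figure D3:**
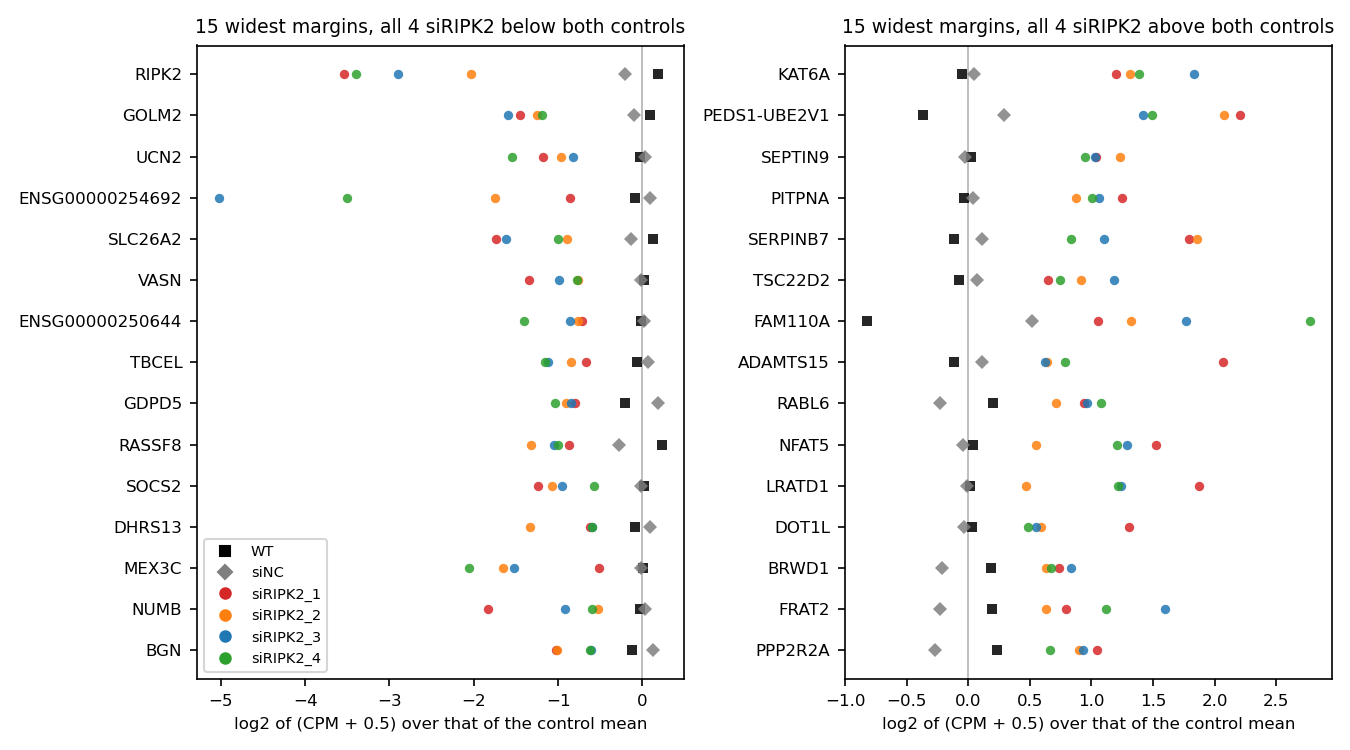
The 15 genes with the widest margins below (left) and above (right) both controls; each point is 1 library, drawn as the log2 ratio of its CPM + 0.5 to that of the mean of WT (square) and siNC (diamond). RIPK2 and GOLM2 on the left and KAT6A and PEDS1-UBE2V1 on the right have margins above 2-fold, and the 4 siRIPK2 libraries (circles) spread widely in ENSG00000254692, MEX3C, NUMB and FAM110A.

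On the other side, KAT6A, a histone acetyltransferase, had the widest margin above both controls. In the controls ENSG00000083168 had 25.2 CPM (WT) and 27.1 CPM (siNC), and the siRIPK2_1 to siRIPK2_4 values were 60.7, 65.7, 94.5 and 69.2 CPM (mean 72.5 ± 15.1, SD, n = 4). The lowest siRIPK2 value was 2.22-fold above the higher control (log2 fold change 1.47, SE 0.26). Its paralog KAT6B, chosen after its values were seen, was at 45 CPM in WT, 49.6 CPM in siNC and 36.4 to 56.8 CPM in siRIPK2, overlapping the controls. SEPTIN9, a filament-forming GTPase of the cytoskeleton (ENSG00000184640, chr17:77280569-77500596), was at 151 and 146 CPM in the controls against 304, 348, 302 and 286 CPM in siRIPK2. Controls and knockdown libraries were each tightly grouped (margin 1.89-fold, log2 fold change 1.07, SE 0.20). PITPNA, which carries phosphatidylinositol between membranes (ENSG00000174238, chr17:1517718-1562816), was at 38.1 and 40.1 CPM against 93.7, 71.9, 82.1 and 78.8 CPM (margin 1.78-fold, log2 fold change 1.06, SE 0.21). The septin genes SEPTIN2, SEPTIN7 and SEPTIN11 and the paralog PITPNB, also chosen after their values were seen, all overlapped the controls.

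Of the other genes with wide margins above both controls, SERPINB7, a serine protease inhibitor gene, was at 6.82 CPM in WT, 8.07 CPM in siNC and 27, 28.3, 16.5 and 13.7 CPM in siRIPK2, where siRIPK2_1 and siRIPK2_2 were the higher pair. NFAT5, the transcription factor of the osmotic stress response, was at 23.7 and 22.3 CPM against 67.2, 34.1, 57.1 and 53.9 CPM. DOT1L, the histone H3 lysine methyltransferase, which overlaps PLEKHJ1, was at 129.9 and 124 CPM against 314, 191, 186 and 178 CPM. Both this gene and the matrix protease gene ADAMTS15 (34.4 and 40.4 CPM against 158, 58.6, 58.1 and 64.8 CPM) were highest in siRIPK2_1 by a wide distance. PPP2R2A, a regulatory subunit of protein phosphatase 2A, was at 38 and 26.6 CPM against 51.5 to 67 CPM. RABL6, a Rab-like GTPase gene, was at 78.3 and 57.9 CPM against 112 to 144 CPM. The bromodomain gene BRWD1 was at 18.5 and 13.9 CPM against 25.4 to 29.3 CPM, and FRAT2, which binds GSK3 in Wnt signalling, at 5.35 and 3.86 CPM against 7.42 to 14.9 CPM. TSC22D2 was at 28.8 and 32.1 CPM against 47.9 to 69.8 CPM, and LRATD1 at 28.2 and 27.8 CPM against 39 to 104 CPM. The controls of FAM110A were far apart, at 3.86 CPM in WT and 10.6 CPM in siNC, against 15.5 to 52.2 CPM in siRIPK2. PEDS1-UBE2V1 is a read-through gene that overlaps PEDS1 and UBE2V1, so its margin of 2.18-fold is uncertain.

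Upstream bases are shown for a few members with 1 start in the RefSeq promoter table (GRCh38.p14): VASN and TUBA1B below both controls and PITPNA above them, for their wide margins, and TRAF3 and COL7A1 below, chosen because they hold an NF-kB motif. GOLM2 has no entry, and SLC36A1 and SEPTIN9 have several starts. The 250 bases before the start are printed 5′ to 3′ on the gene's strand. Capitals mark matches, on either strand, to any of these motifs. The NF-kB motif is GGG, then any pair of bases, then either TTTCC or TTCCC. The AP-1 motif is TGANTCA, and the sterol element of SREBP factors is TCACNCCAC. The E-box is CACGTG, and the GC box bound by Sp factors is GGGCGG. The CCAAT box is named by its letters, and the cyclic AMP element is TGACGTCA.
VASN: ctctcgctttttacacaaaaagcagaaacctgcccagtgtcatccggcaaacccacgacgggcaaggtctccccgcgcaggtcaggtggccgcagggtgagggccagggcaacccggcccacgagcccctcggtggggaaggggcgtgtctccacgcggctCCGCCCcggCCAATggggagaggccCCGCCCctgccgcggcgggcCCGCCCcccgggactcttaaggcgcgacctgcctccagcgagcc
TUBA1B: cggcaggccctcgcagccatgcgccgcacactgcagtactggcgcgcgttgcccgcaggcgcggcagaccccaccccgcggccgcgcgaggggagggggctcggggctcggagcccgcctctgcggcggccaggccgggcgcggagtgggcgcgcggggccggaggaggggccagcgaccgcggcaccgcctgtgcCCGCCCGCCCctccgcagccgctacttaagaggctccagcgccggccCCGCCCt
PITPNA: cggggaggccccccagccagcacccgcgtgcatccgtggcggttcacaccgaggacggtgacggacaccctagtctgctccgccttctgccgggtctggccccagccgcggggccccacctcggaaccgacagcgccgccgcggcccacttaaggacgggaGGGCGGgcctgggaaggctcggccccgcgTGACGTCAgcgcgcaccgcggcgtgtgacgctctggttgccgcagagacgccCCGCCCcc
TRAF3: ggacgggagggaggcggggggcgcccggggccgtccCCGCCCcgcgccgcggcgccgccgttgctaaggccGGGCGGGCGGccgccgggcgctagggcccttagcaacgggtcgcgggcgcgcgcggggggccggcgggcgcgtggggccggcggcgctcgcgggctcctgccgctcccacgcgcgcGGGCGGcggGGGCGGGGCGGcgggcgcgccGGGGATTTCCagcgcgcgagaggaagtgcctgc
COL7A1: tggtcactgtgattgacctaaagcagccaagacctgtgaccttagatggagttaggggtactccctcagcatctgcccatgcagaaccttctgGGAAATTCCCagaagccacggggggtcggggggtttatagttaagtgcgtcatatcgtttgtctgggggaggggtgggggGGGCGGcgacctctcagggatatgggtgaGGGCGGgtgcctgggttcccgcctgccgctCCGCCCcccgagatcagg

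These windows lie at chr16:4371598-4371847, plus strand (VASN), chr12:49131396-49131645, minus strand (TUBA1B), chr17:1562793-1563042, minus strand (PITPNA), chr14:102777199-102777448, plus strand (TRAF3) and chr3:48595330-48595579, minus strand (COL7A1). Each of these windows holds GC boxes. VASN also holds a CCAAT box, PITPNA a cyclic AMP element, and TRAF3 and COL7A1 an NF-kB motif each. Neighbouring GC boxes in 1 run of capitals can share bases. Over genes with a single start, an NF-kB motif of either spelling was present in 5.26% of the promoters below both controls (16 of 304), 2.6% of those above (8 of 308) and 4.36% of all 6163 promoters of genes with a mean of at least 5 CPM. A GC box was present in 73.7%, 69.8% and 71.9% in the same order, CCAAT in 39.1%, 33.8% and 37.3%, AP-1 in 3.62%, 3.9% and 3.46%, and CACGTG in 11.2%, 7.14% and 9.61%. The cyclic AMP element was in 2.96%, 3.57% and 3.49%, and the sterol element in 2 promoters below and 0 above, against 0.925% of all. A match describes letters in this window and does not show that a factor binds there.

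The 4 siRIPK2 libraries did not contribute evenly. Among the 548 genes below both controls, siRIPK2_2 was nearest the controls for 180, against 116 for siRIPK2_1, 114 for siRIPK2_3 and 138 for siRIPK2_4. Among the 520 above it was nearest for 190, against 94, 105 and 131. For a gene below, the nearest siRIPK2 value is the highest of the 4, and for a gene above it is the lowest. Over all 10673 genes, siRIPK2_1 to siRIPK2_4 were the highest of the 4 for 2940, 2405, 2935 and 2393. The library farthest from the controls was siRIPK2_1 for 188 genes below and 186 above, siRIPK2_2 for 91 and 80, siRIPK2_3 for 152 and 158, and siRIPK2_4 for 117 and 96. Over all 10673 genes, the 4 libraries in that order were the lowest of the 4 for 2869, 2944, 2468 and 2392. The controls were uneven too. Of the genes above both controls siNC was the lower control for 66.9% (348 of 520), and of those below it for 35.6% (195 of 548), against 48.8% of all 10673 genes. The median log2 fold change of genes above both controls was 0.45 against siNC and 0.32 against WT, and of genes below -0.45 and -0.37. Both contrasts share the 4 siRIPK2 libraries.

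Genes above both controls were longer than genes below. The median exon length was 6182 bases for genes above both controls, 4924 for genes below and 5325 for all 10673. Median GC content of the longest transcript was 47.5%, 50.2% and 47.8% in the same order. With each library corrected for length and GC content, 463 genes were below and 619 above, of which 390 and 453 were also in the uncorrected sets. Exons overlapped another listed gene for 29% of the genes below and 28.7% of those above, against 31.3% of all. The part that length and GC content play in single genes was not tested.

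In the pathway of the target, few genes besides RIPK2 lay on one side of both controls. Of 53 listed members, 46 had a mean of at least 5 CPM. Of these, 4 lay below both controls (8.7%, against 5.13% of all genes) and 1 above (2.17%, against 4.87%). The 4 below include RIPK2, the target of the siRNA, so that share is not a result about the rest of the pathway. The receptor NOD1 was at 16.9 CPM in WT, 19.4 CPM in siNC and 16.4, 18.6, 19 and 8.99 CPM in siRIPK2, and only siRIPK2_4 was clearly low. NOD2 was at most 0.146 CPM in any library. The ligase XIAP was at 48.2 and 37.3 CPM in the controls against 29.9 to 53 CPM, overlapping both. Of the adaptors and ligases, TRAF3, which restrains non-canonical NF-kB signalling, was at 28.4 and 27.4 CPM against 15.2, 22.8, 26 and 18.6 CPM, below by a margin of 1.05-fold. ITCH, a ubiquitin ligase that acts on RIPK2, was at 55.1 and 51 CPM against 95.2, 72, 56.2 and 62.7 CPM, the 1 member above both.

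Downstream, the TAK1 kinase gene MAP3K7 was at 42.7 CPM in WT, 45.5 CPM in siNC and 38.1 to 51.4 CPM in siRIPK2, and the NF-kB subunit gene RELA at 98.7 and 113 CPM against 103 to 109 CPM. Neither gene lay on one side of both controls, and RELA lay between them in all 4 siRIPK2 libraries. The MAP kinase branch held the other 2 members below. MAPK9, which encodes the kinase JNK2, was at 32.2 CPM in WT and 37.2 CPM in siNC against 16, 17.8, 24.6 and 22.2 CPM, a margin of 1.30-fold (log2 fold change -0.79, SE 0.25). MAP2K4, which phosphorylates JNK and p38, was at 29.5 CPM in WT but 12.7 CPM in siNC, against 12.5, 8.22, 11.6 and 8.77 CPM in siRIPK2. The siNC value of MAP2K4 lies almost on that of siRIPK2_1, so its position rests on a narrow gap. In edgeR, 3 members (RIPK2, MAPK9 and MAP2K4) were lower and 1 (ERBIN, a scaffold protein that binds NOD2) higher at an unadjusted p under 0.05, and 0 passed with adjustment over all genes.

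**Figure D4:**
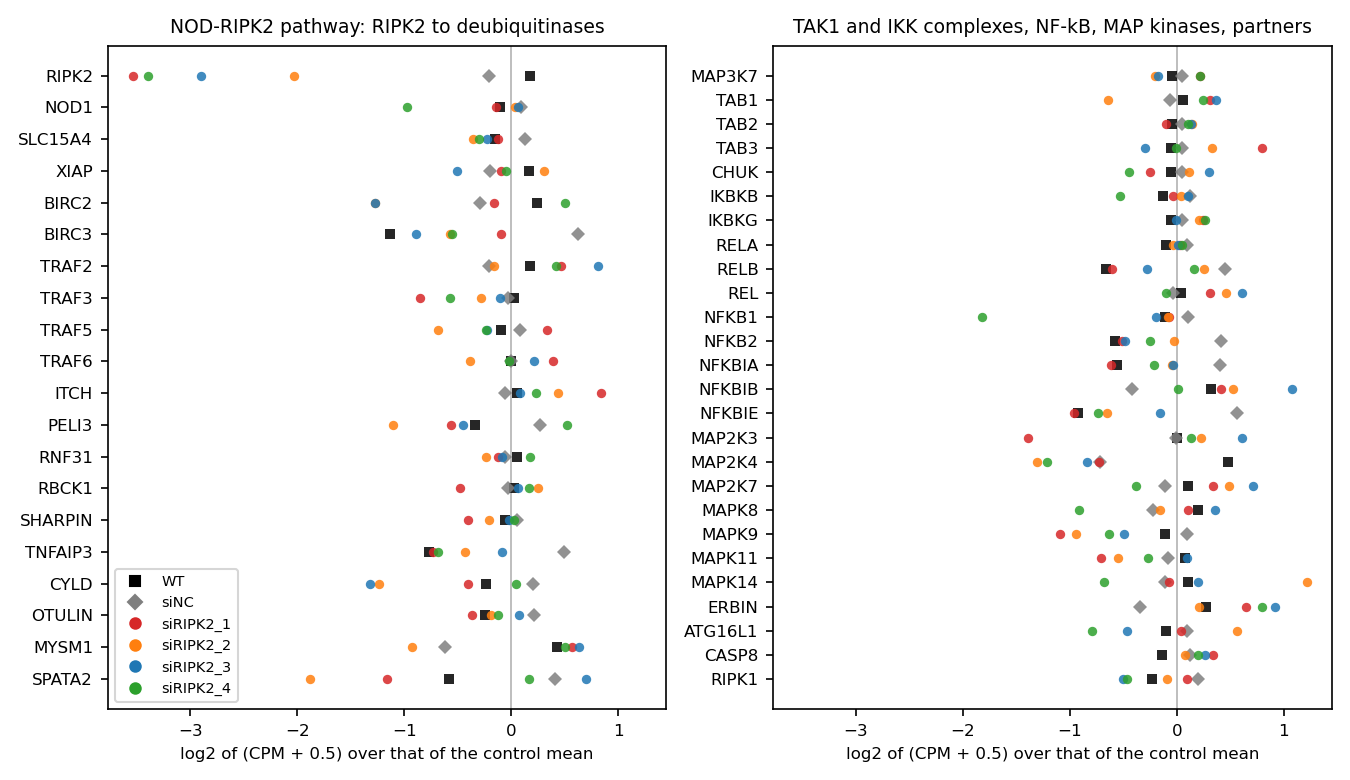
Members of the NOD-RIPK2 pathway list with a mean of at least 5 CPM; each point is 1 library, drawn as the log2 ratio of its CPM + 0.5 to that of the mean of WT (square) and siNC (diamond), with siRIPK2 libraries as circles. RIPK2 lies more than 2 below the mean of the controls on this log2 scale in all 4 siRIPK2 libraries, and of the other genes MAPK9, MAP2K4, TRAF3 and ITCH have all circles on one side of both controls.

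Among NF-kB target genes the siRIPK2 values were mostly under siNC. Of 32 listed members 21 had a mean of at least 5 CPM, and of these 0 lay below both and 0 above both, against 5.13% and 4.87% of all genes. In 16 of them (76.2%, against 17.1% of all genes) the 4 siRIPK2 values were all below siNC, and in 7 they all lay between WT and siNC. The inhibitor gene NFKBIA was at 51.6 CPM in WT, 101 CPM in siNC and 49.4, 73.8, 74.1 and 65.8 CPM in siRIPK2. All 4 siRIPK2 values were under siNC, and 3 of them were above WT. The list's median log2 fold change against both controls was -0.31, beside 0.01 for all genes. The sign differed by control: the median was -0.72 against siNC and 0.35 against WT. Glycolysis and hypoxia genes had a similar arrangement, with 18 of 29 members (62.1%) under siNC in all 4 libraries. In all, 3 of the 29 were below both controls (10.3%, against 5.13% of all genes). These were HK2, PFKFB3 and PKM, with narrow margins of 1.03-fold, 1.02-fold and 1.01-fold. With total counts alone 0 were below both.

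Cholesterol synthesis genes had the largest share below both controls among the 26 lists with at least 10 measured members. Of 25 listed genes 22 were at that level, and 5 of them lay below (22.7%, against 5.13% of all genes) and 0 above, with a median log2 fold change of -0.30. The demethylase gene CYP51A1 was at 60.9 and 56.5 CPM against 43.5, 38.7, 45.6 and 33.8 CPM. LSS, lanosterol synthase, was at 159 and 164 CPM against 114, 130.1, 111 and 105 CPM. In both genes the controls lay close together and no siRIPK2 value reached them. The sterol isomerase gene EBP was at 50.1 and 57.9 CPM against 37.3 to 45.5 CPM, and the dehydrogenase gene NSDHL at 53.9 and 60.4 CPM against 43.9 to 53.5 CPM, the latter almost touching WT. In edgeR 4 list members were lower at an unadjusted p under 0.05 and 0 passed with adjustment.

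Tubulins and their cofactors followed, with 4 of 22 below (18.2%) and 1 above (4.55%), against 5.13% and 4.87% of all genes. Besides TUBA1B and TBCEL the members below were TUBB6, a beta-tubulin, at 135 CPM in WT, 178 CPM in siNC and 97.7 to 121 CPM in siRIPK2, and the folding cofactor TBCB at 90.1 and 116 CPM against 58.7 to 88 CPM. The 1 above was TUBD1, delta-tubulin. Among collagens 3 of 18 were below (16.7%) and 1 above (5.56%), while the list's median log2 fold change was 0.07. The collagen VI chain gene COL6A2 was at 1304 CPM in WT, 1571 CPM in siNC and 894 to 1135 CPM in siRIPK2. COL6A1, its partner chain, was at 1135 and 1784 CPM against 857 to 1096 CPM, and the anchoring fibril gene COL7A1 at 189 and 224 CPM against 106 to 165 CPM. COL5A2 was above both, at 236 and 176 CPM against 268 to 378 CPM.

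Other matrix genes were below both controls in 4 of 34 cases (11.8%) and above in 0, against 5.13% and 4.87% of all genes. The protease inhibitor gene TIMP2, which overlaps CEP295NL, was at 531 CPM in WT and 554 CPM in siNC against 415, 153, 113 and 417 CPM in siRIPK2, so siRIPK2_2 and siRIPK2_3 were low and the other two nearer the controls. The gelatinase gene MMP2 was at 1311 and 1575 CPM against 834 to 1218 CPM. FBN2 (fibrillin) and ITGA3 (an integrin subunit) were the others, the first with siRIPK2_1 alone far below at 4.36 CPM. The TGF-beta list had 2 of 29 below (6.9%, near the 5.13% of all genes). These were VASN and the latent TGF-beta binding protein gene LTBP4 (60.5 and 75 CPM against 41.8 to 51.8 CPM). The protocadherins PCDHGA2 and PCDHGA10 were below as well. Each overlaps 21 other listed genes and is uncertain.

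Lysosomal and nutrient-sensing genes on one side lay mostly below both controls. LAMTOR1, which anchors the Ragulator complex on lysosomes, was at 137 CPM in WT, 119.7 CPM in siNC and 82, 63.6, 91.2 and 61.1 CPM in siRIPK2, a margin of 1.31-fold. The Rag GTPase gene RRAGA, at 140.1 and 148 CPM against 80.1 to 130.4 CPM, and NPRL2 were also below. This made 3 of 28 (10.7%, against 5.13% of all genes). AKT1S1 lay above, by a margin of only 1.0005-fold. Of the lysosome and autophagy list 4 of 31 were below (12.9%; among them CTSB, HEXA and NPC1), with 2 under total-count scaling. The protease gene CTSB, cathepsin B, was at 1266 and 1105 CPM against 836 to 1002 CPM. Amino acid carriers went both ways: SLC36A1 and its relative SLC36A4 (30.6 and 25.7 CPM against 18.3 to 22.1 CPM) lay below, and SLC38A7, SLC66A1 and SLC7A1 above, of 20 measured.

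Apoptosis regulators had 4 of 27 below (14.8%, against 5.13% of all genes) and 1 above (3.7%, against 4.87%). TNFAIP8L1, which overlaps MYDGF, was at 25.2 CPM in WT, 35.4 CPM in siNC and 12.2 to 18.1 CPM in siRIPK2. The BH3-only gene BBC3, which encodes PUMA, was at 13.8 and 14.2 CPM against 10.9, 9.20, 9.31 and 7.75 CPM, and BAD and CASP2 completed those below. CFLAR, the inhibitor of caspase-8 activation, lay above at 24.5 and 24 CPM against 42.1, 30.6, 35.3 and 28.9 CPM. The p53 target list had BBC3, TP53I3 and TP53INP1 below and the death receptor gene FAS and RRM2B above. These were 12% and 8% of 25, against 5.13% and 4.87% of all genes. FAS, which overlaps ACTA2, was at 21.8 and 15.7 CPM against 26.7 to 41.2 CPM. Interferon-stimulated genes had 3 of 26 below (11.5%), among them ISG20 and STAT2, the latter by a margin of only 1.0008-fold. DNA replication genes had 3 of 33 below (9.09%), CDC6, MCM10 and MCM3, with PRIM1 above. The stress response list had 1 of 28 below (CANX).

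Chromatin and nuclear pore genes had the largest share above both controls of the same 26 lists, 6 of 35 (17.1%, against 4.87% of all genes), with 1 below (SMARCD3). The SWI/SNF ATPase gene SMARCA4 was at 209 CPM in WT, 191 CPM in siNC and 418, 270.1, 298 and 355 CPM in siRIPK2, a margin of 1.29-fold. SMARCD1, of the same complex, was at 73.8 and 44.3 CPM against 139.7, 113, 97.3 and 129 CPM, where siNC was the low control. For RANBP2 the controls were far apart, at 115 CPM in WT and 40.3 CPM in siNC, against 155, 125, 151 and 126 CPM. The cohesin loader gene NIPBL (49 and 19.4 CPM against 50.9 to 64.9 CPM) and the cohesin gene STAG2, which overlaps TENM1 (86.2 and 33.7 CPM against 89.3 to 109 CPM), had the same layout with siNC far under WT, and ARID2 had controls nearly equal, at 22.2 and 22.4 CPM against 32.8, 25, 30.5 and 23.8 CPM. Mesenchymal markers had 3 of 21 above (14.3%) and 2 below (9.52%), with a list median log2 fold change of -0.31. STAT3 was at 121 and 114 CPM against 239, 186, 175 and 144 CPM, and the transcription factor gene ZEB1 at 18.7 and 10.2 CPM against 50.2, 43.7, 22.5 and 22.1 CPM. The annexin gene ANXA2 was below at 2609 and 3584 CPM against 361, 1966, 2479.9 and 2314 CPM, with siRIPK2_1 far under the other three.

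**Figure D5:**
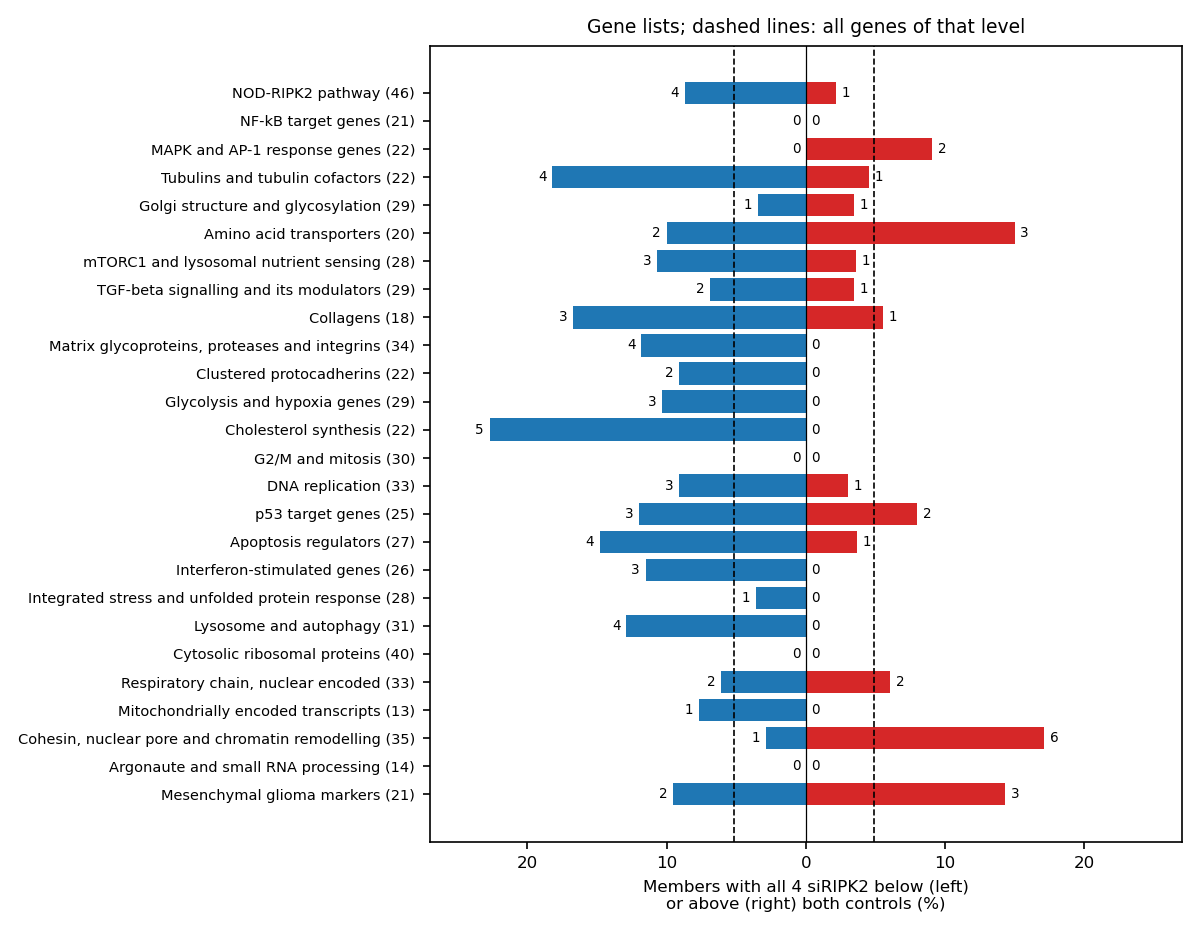
Percent of each list's members with a mean of at least 5 CPM (number in brackets) whose 4 siRIPK2 values all lie below (left bars) or above (right bars) both controls, for lists with at least 10 such members; figures beside the bars are counts and dashed lines mark all genes, at 5.13% and 4.87%. Cholesterol synthesis extends farthest to the left with 5 of 22 and chromatin genes farthest to the right with 6 of 35.

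Besides the NF-kB targets, 3 lists with at least 10 measured members had none on either side. These were G2/M and mitosis (0 of 30), cytosolic ribosomal proteins (0 of 40) and Argonaute and small RNA processing (0 of 14). Of all genes, 5.13% lay below and 4.87% above. MAPK and AP-1 response genes had 0 of 22 below and 2 above: the phosphatase gene DUSP5, at 71.3 and 89.6 CPM against 204, 95.3, 209.7 and 109 CPM, and the growth factor gene EREG, at 24.7 and 18.3 CPM against 34.3, 33.5, 29.6 and 36.5 CPM. The Golgi list had GOLM2 below and the glycosyltransferase gene MGAT5 above, of 29. The nuclear-encoded respiratory chain had 2 of 33 below (SDHC and UQCRC1) and 2 above (SDHA and SDHB), and MT-CO1 was the 1 mitochondrially encoded transcript below, of 13. The margins of these genes were narrow, from 1.0002-fold for SDHA to 1.04-fold for SDHC. Over all lists 0 members passed edgeR's adjusted threshold in either direction. The astrocyte marker GJA1 and the neural genes SYT1 and CNP were above both controls, and neither the 1 endothelial nor the 1 macrophage marker with a mean of at least 5 CPM lay on either side.

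At the edges of the definition, CCDC102A (mean 5.02 CPM) was just inside the level limit among genes below, and LANCL3 (mean 4.9993 CPM) just outside it. By position, WBP1 was just inside, with 38.736 CPM in siNC and 38.731 CPM in siRIPK2_2, and MAP1LC3B just outside, with 122.66 CPM in siNC and 122.69 CPM in siRIPK2_2. Among genes above, ENSG00000205236 (mean 5.05 CPM) was just inside the level limit and EPHA5 (mean 4.68 CPM) just outside. Position put ENSG00000260272 just inside, with 18.139 CPM in WT and 18.142 CPM in siRIPK2_3, and INO80B-WBP1 just outside, listed at 0 in both controls and in siRIPK2_1.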

How the data were processed

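Poly(A)-selected RNA from 6 U118 libraries was sequenced, per the labels' protocols. The deposited file holds unnormalised counts, whole numbers for each gene ID; FastQC, Trimmomatic, HISAT2, bedtools and the build GRCh38 are named, per the submitters' processing notes, while the sources used here give no version, annotation release or strand setting. Without strand, reads of genes that overlap cannot be separated (5320 of 20263 IDs overlap another). Symbols matched 20148 IDs and GENCODE 29 positions 20224. Levels are CPM with TMM factors (edgeR 4.0.16, R 4.3.3). Genes with a mean of at least 5 CPM were sorted by whether all 4 siRIPK2 values lay on one side of both controls. The quasi-likelihood test set 4 siRIPK2 libraries against WT and siNC together (filterByExpr with a minimum count of 10, 13901 genes, 4 residual degrees of freedom, Benjamini-Hochberg adjustment). A fit with 3 groups gave each control its own contrast; there the lone controls are assumed to vary as the siRIPK2 libraries do. DESeq2 1.42.0 and limma 3.58.1 were alternatives. The edgeR step was tested on simulated data. No 2 libraries were duplicates (chi-square of at least 77.1 per degree of freedom).

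Named genes are RIPK2, 4 markers (GOLM2, SLC36A1, TUBA1B, VASN), the 15 widest margins per direction and up to 4 members per list on one side of both controls, with all members of the NOD-RIPK2 list; other genes are named where a small count needed them. Members, rule and the 31 gene lists were chosen with earlier results of these data known. All listed members but 1 (TBCE) matched an ID. Leaving out libraries, other scalings, filters and a length and GC correction were tried. Results of some list members are not reported here.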

Additional observations from a re-analysis of the deposited data

Results flagged for a closer look

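Within the 4 siRIPK2 libraries, a single library stood apart from the other three (Dixon's ratio above its 95% critical value) for 6 of 100 named genes and for 1 library property; chance alone gives about 1 in 20. ADAMTS15 was high in siRIPK2_1 (158 CPM, ratio 0.933), as were DOT1L (314 CPM, ratio 0.906) and CASP2 (28.7 CPM, ratio 0.927). FBN2 was low in siRIPK2_1 (4.36 CPM, ratio 0.865). In siRIPK2_2, DHRS13 was low (4.65 CPM, ratio 0.953) and CTSB high (1002 CPM, ratio 0.873). The share of counts from mitochondrially encoded transcripts was 4.71% in siRIPK2_1 against 4.1% to 4.13% in the other three (ratio 0.951), and 4.27% in WT and 4.64% in siNC; its part in the results was not tested.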

How the results depend on the processing

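No paired analysis was possible because WT and siNC have 1 library each and carry no replicate numbers. Requiring nearest values at least 25% apart left 51 genes below and 37 above. Leaving out 1 library widens both sets by construction, since fewer values must agree: 881 to 1821 genes were then below and 818 to 2008 above, the highest of each without WT. Without siNC 1211 and 1212 were, and these sets held 538 of the 548 and 520 of the 520. That overlap is fixed by construction too, since a gene on one side of both controls lies on that side of WT. It therefore does not show that the sets are stable. The level limit was applied anew without siNC (10664 genes read), so a gene can drop out on its level. For the edgeR calls, leaving out 1 library gave 0 to 1 lower and 0 to 1 higher genes: RIPK2 and AKAP2 without siRIPK2_2, and ENSG00000257390 and INO80B-WBP1 without siRIPK2_1. The DESeq2 Wald test called 3 lower and 7 higher; edgeR with DESeq2 size factors, without a filter or with the length and GC correction, and limma-voom, called 0. The RIPK2 log2 fold change ranged from -3.38 to -2.73 over the libraries left out, with adjusted p = 0.0431 without siRIPK2_2 (0.756 to 1 without another), and was -2.92 in DESeq2 (adjusted p = 1.15e-06). The 2 controls and a biological coefficient of variation of 31.5% limit the precision of the edgeR test.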
